A study of Mus musculus with 8 samples.

Results

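The 9 genes described here encode estrogen receptors, their coregulators and their targets. Esr1, Esr2 and Esrra are receptor genes, Greb1 and Pgr are target genes, and Nrip1, Ncoa1, Ncoa2 and Ncoa3 are coregulator genes. They were chosen by name, with earlier results of these data known. Every probe set that the array's annotation gives to a single one of these symbols was taken and described on its own, a probe set being a group of short probes that is read out as one value. This gave 28 of the 45037 probe sets that are not controls, with 6 for Nrip1, 4 each for Greb1 and Ncoa2, 3 each for Esr1, Pgr and Ncoa1, 2 each for Esrra and Ncoa3, and 1 for Esr2. No probe set with several symbols held a member.

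The arrays measured T29 cells. This line comes from a mouse thymic lymphoma and is described as lacking Ikaros, the lymphoid zinc finger transcription factor encoded by Ikzf1. All cells were transduced with a retroviral vector, either MigR1 alone or MigR1 with Ik1ER, an inducible form of Ikaros. Each line received 4-hydroxytamoxifen (4OHT) at 100 nM or its solvent ethanol for 24 h. The 4 groups, MigR1 in ethanol, MigR1 in 4OHT, Ik1ER in ethanol and Ik1ER in 4OHT, have 2 Affymetrix arrays each. MigR1 cells given 4OHT thus carry the drug without the fusion, and Ik1ER cells in ethanol carry the fusion without the drug. The labels name 1 cell line. Since they are silent on whether the 2 arrays of a group stem from different cultures, the p-values speak only to the variation of arrays, part of which may be technical.

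Estrogen receptors are nuclear receptors: binding of a ligand to the ligand-binding domain changes the shape of that domain, and the receptor on DNA then recruits coactivators or corepressors. Fusing this domain to another protein is a common way to make that protein depend on 4OHT, which binds it and is itself an antagonist or a partial agonist of estrogen receptors depending on the tissue. Greb1 and Pgr are classical readouts of estrogen receptor alpha in breast and uterus. The comparisons below ask whether the receptor part of the fusion, or 4OHT itself, left a trace in the transcripts of these genes. No group carries the receptor part without Ikaros. In Ik1ER cells an effect of the receptor part and an effect of Ikaros therefore cannot be told apart.

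Values are log2 expression values, and a difference of 1 is a 2-fold change. As a gauge of background, the highest mean among 27 probe sets for Bacillus transcripts, which mouse cells lack, was 5.27. This gauge is strict: the median of their means was 3.33, and the medians of whole arrays were 5.36 to 5.43. Of the 28 probe sets, 19 had a mean above 5.27. T lineage markers (Cd3d, Cd3e, Cd3g, Thy1, Ptprc, Cd8a and Cd4) exceeded it in 7 of 7 cases, while 0 of 3 B cell markers and 0 of 5 markers of epithelium (Krt8, Krt18, Krt19, Epcam and Cdh1) did. Of 4 myeloid and 4 stromal markers, 3 and 1 exceeded it. Of 2 erythroid markers, Epor exceeded it and Alas2 did not. In the Ik1ER line, both replicate 2 arrays differed from the rest in an RNA quality control. The 3' reading of the transferrin receptor control exceeded the 5' reading by 1.66 (ethanol) and 1.91 (4OHT) there, and by 1.15 to 1.39 elsewhere. Where these arrays carry much of a value, the value without them is given as well.

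Esr1 encodes estrogen receptor alpha, the receptor whose ligand-binding domain is commonly used in such fusions. Its probe set 1421244_at read 5.68 and 6.42 on the MigR1 ethanol arrays (replicates 1 and 2) and 6.13 and 6.29 on the MigR1 4OHT arrays. In Ik1ER cells it read 7.38 and 6.94 in ethanol and 7.16 and 6.55 in 4OHT. All 4 Ik1ER arrays lay above all 4 MigR1 arrays, with means of 7.01 ± 0.36 and 6.13 ± 0.32 (SD, n = 4). The difference was 0.88 on the log2 scale (SE 0.20, 95% interval 0.42 to 1.34), or 1.84-fold. The exact permutation test, two-sided, gave p = 0.0286, the smallest that 4 against 4 arrays allow, but limma did not call it among all probe sets (adjusted p = 0.106). Without both replicate 2 arrays of the Ik1ER line the difference was 1.14 (adjusted p = 0.135).

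The order of the group means was 7.16 ± 0.31 for Ik1ER in ethanol, 6.86 ± 0.44 for Ik1ER in 4OHT, 6.21 ± 0.11 for MigR1 in 4OHT and 6.05 ± 0.52 for MigR1 in ethanol (SD, n = 2). Within each line the treatments overlapped. The difference between the lines was 1.11 in ethanol (adjusted p = 0.606) and 0.64 in 4OHT (adjusted p = 0.384), and 4OHT changed the value by -0.31 in Ik1ER cells (adjusted p = 0.734) and 0.16 in MigR1 cells. This probe set thus read higher in the Ik1ER line with and without the drug, by an amount that the test across all probe sets did not call.

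The other 2 Esr1 probe sets did not show this difference. Probe set 1435663_at lay between 2.94 and 3.13 on the 8 arrays and differed between the lines by 0.02 (exact permutation test, p = 0.657). Probe set 1460591_at lay between 4.36 and 4.61 and differed by -0.04 (exact permutation test, p = 0.6). Both lay below the highest Bacillus mean on all 8 arrays. Which part of the transcript each probe set reads, and which species the receptor part of Ik1ER comes from, is unknown here, as neither the labels nor the table gives it.

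Ikzf1, the gene that Ik1ER is made from, was read by probe set 1421303_at at 8.12, 8.14, 8.16 and 8.51 in the MigR1 arrays and at 11.17, 10.60, 11.27 and 10.45 in the Ik1ER arrays (ethanol replicates 1 and 2, then 4OHT). It was higher in Ik1ER cells by 2.64 (SE 0.20, 6.22-fold, limma adjusted p = 0.00643). The other Ikzf1 probe set, 1436312_at, lay between 9.97 and 10.44 and differed by -0.07 (adjusted p = 0.806). Both Ikzf1 probe sets thus read above the highest Bacillus mean in MigR1 cells as well, although the line is described as lacking Ikaros. In each gene, then, a single probe set separated the lines. In the Ik1ER line both of these separating probe sets read higher on replicate 1 than on replicate 2, in ethanol and in 4OHT. The replicate 2 arrays of this line are those that stood apart in the transferrin receptor control. The difference of replicate 2 and replicate 1 correlated at 0.43 between the Ik1ER groups, more than between any other groups. How common this pattern is among all probe sets was not tested, so the shared direction is a description only.

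**Figure D1:**
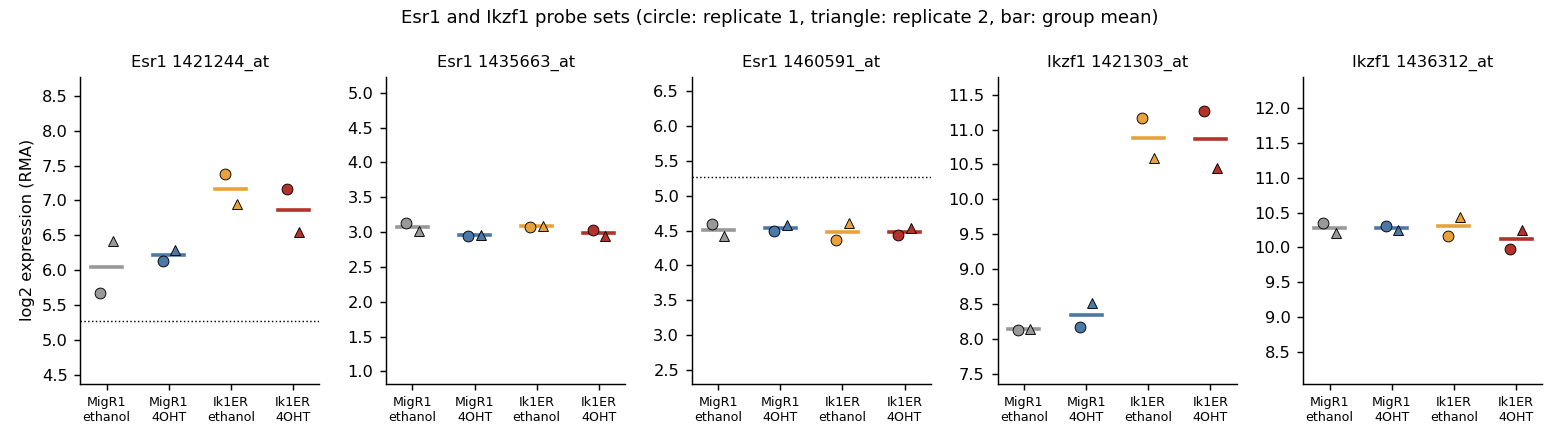
Log2 expression on each of the 8 arrays (vertical axis) for the probe sets of Esr1 and Ikzf1, by group (horizontal axis). Points are arrays, bars are group means, and the dotted line, drawn where it falls within a panel, is the highest Bacillus control mean (5.27), with panels placed on their own part of the scale. Esr1 1421244_at and Ikzf1 1421303_at are higher on all 4 Ik1ER arrays than on all 4 MigR1 arrays, and the other probe sets overlap.

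Esr2, which encodes estrogen receptor beta, has 1 probe set, 1426103_a_at. It read 5.05, 5.06, 5.12 and 5.02 in MigR1 cells and 5.18, 5.06, 5.24 and 4.73 in Ik1ER cells, in the order of groups used above. Its mean lay below the highest Bacillus mean, and the arrays of the 4 groups overlapped. Esrra encodes estrogen-related receptor alpha, an orphan receptor of energy metabolism that estrogen does not bind. Its brighter probe set, 1460652_at, lay between 8.29 and 8.46 on all arrays. The dimmer one, 1442864_at, read 5.97, 6.07, 6.08 and 5.96 in MigR1 cells and 5.93, 5.59, 5.74 and 5.84 in Ik1ER cells. All 4 Ik1ER arrays were lower, by 0.24 (SE 0.09, exact permutation test, p = 0.0286), without a call in limma (adjusted p = 0.299). The 2 probe sets of Esrra therefore differed, and the brighter one gave no difference between lines.

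Over all 28 probe sets, 3 separated the 4 Ik1ER from the 4 MigR1 arrays without overlap: Esr1 1421244_at upward, and Esrra 1442864_at and Nrip1 1454295_at downward. Of all 45037 probe sets, 6.18% were separated in this way, 2.89% upward and 3.30% downward. The limma test between lines over both treatments called 0 of the 28 (5 had an unadjusted p under 0.05), against 0.659% of all probe sets. The 95% intervals of 26 of the 28 lay within 0.5 of 0 on the log2 scale, which is 1.41-fold. The others were those of Esr1 1421244_at and Nrip1 1454295_at. Where the mean lay below the highest Bacillus mean, as for Pgr and Esr2, a narrow interval sets no bound on a difference between lines. In ethanol alone, where the fusion is present without its ligand, 0 of 28 were called (2 with an unadjusted p under 0.05) and 0 of all 45037. Even Ikzf1 1421303_at, 2.75 higher in Ik1ER cells in ethanol (6.74-fold), was not called there (limma adjusted p = 0.274). The lack of calls in ethanol therefore does not show a lack of differences.

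**Figure D2:**
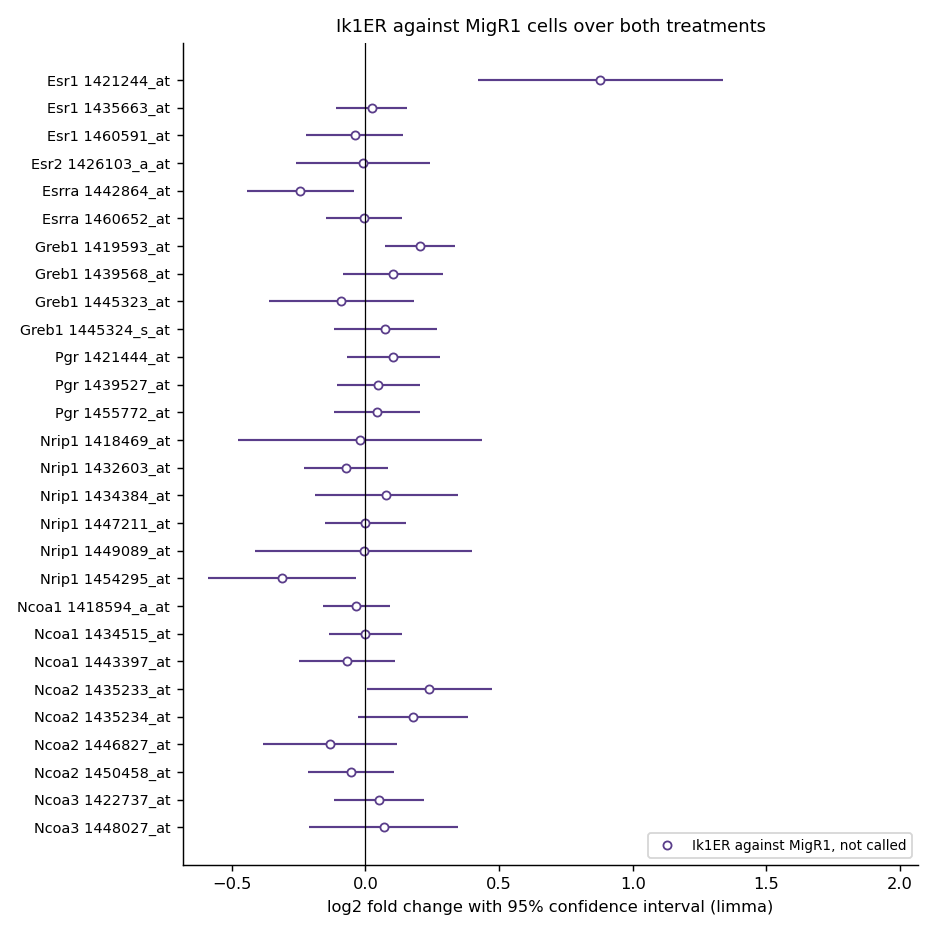
Difference between Ik1ER and MigR1 cells over both treatments for the 28 probe sets (rows), as log2 fold change with its 95% confidence interval from limma on the horizontal axis. Esr1 1421244_at has the largest difference, 0.88, and no probe set was called at an adjusted p under 0.05.

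Of the 4 Greb1 probe sets 2 rose with 4OHT in Ik1ER cells, and 0 were called in MigR1 cells. Greb1 is a gene that estrogen receptor alpha induces early in breast cancer cells, and its protein binds that receptor as a cofactor. The RefSeq promoter table (GRCm38.p6) holds 2 start sites of Greb1, both on the minus strand of chromosome 12. The 250 bases before each start are printed because Greb1 is the only member that limma called, and they show which receptor and Ikaros motifs lie there. The first is at chr12:16800887-16801136 and the second at chr12:16757240-16757489. Capitals mark GGTCA, the single arm of an estrogen response element, and GGGAA, the short core that Ikaros proteins bind, or their complements TGACC and TTCCC where the match is on the other strand.
Greb1 first start: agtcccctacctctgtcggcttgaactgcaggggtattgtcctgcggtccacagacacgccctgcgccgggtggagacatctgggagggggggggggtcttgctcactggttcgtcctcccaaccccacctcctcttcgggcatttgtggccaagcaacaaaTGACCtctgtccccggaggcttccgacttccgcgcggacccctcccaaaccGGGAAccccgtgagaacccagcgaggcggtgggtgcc
Greb1 second start: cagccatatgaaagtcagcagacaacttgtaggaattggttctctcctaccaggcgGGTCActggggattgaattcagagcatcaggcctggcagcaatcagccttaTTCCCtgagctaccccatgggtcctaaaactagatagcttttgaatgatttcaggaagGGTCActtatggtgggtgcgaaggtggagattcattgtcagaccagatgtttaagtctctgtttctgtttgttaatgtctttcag

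In the first sequence TGACC begins 88 bases and GGGAA 37 bases before the start. In the second, GGTCA begins 194 and 85 bases and TTCCC 143 bases before it. These short motifs are common: of 32851 promoter windows of 300 bases in the table, 40.5% held GGTCA and 62.7% held GGGAA on either strand. Both short motifs were added to the search after the first results were seen. The full estrogen response element, GGTCA and TGACC with any 3 bases between, found in 0.07% of all windows, and the estrogen-related receptor motif AAGGTCA, found in 4.72%, were in none of the 10 windows of the 7 members that the table holds. The longer Ikaros core TGGGAA, found in 25.6%, was in the Esr2 window only. No match here is a shown binding site. Ncoa2 and Ncoa3 were not matched.

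Greb1 probe set 1419593_at read 6.43 and 6.48 on the MigR1 ethanol arrays, 6.43 and 6.34 in MigR1 cells in 4OHT, and 6.39 and 6.28 in Ik1ER cells in ethanol. In Ik1ER cells in 4OHT it read 6.91 and 6.92, above all other 6 arrays. The rise with 4OHT was 0.58 (SE 0.08, 95% interval 0.39 to 0.76, 1.49-fold, limma adjusted p = 0.0127), where 2.50% of all probe sets were called. In MigR1 cells the change was -0.07 (95% interval -0.25 to 0.12). The other 3 group means, 6.45 ± 0.03, 6.39 ± 0.07 and 6.34 ± 0.07 (SD, n = 2) for MigR1 in ethanol, MigR1 in 4OHT and Ik1ER in ethanol, overlapped with their neighbours in that order. Both Ik1ER ethanol arrays did lie below both MigR1 ethanol arrays, a difference of -0.12 (limma adjusted p = 0.889). In 4OHT this probe set was 0.52 higher in Ik1ER than in MigR1 cells (SE 0.08, adjusted p = 0.0198), where 2.13% of all were called.

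Probe set 1439568_at read 8.12 and 8.20 on the MigR1 ethanol arrays, 8.06 and 8.14 in MigR1 cells in 4OHT, 7.81 and 8.05 in Ik1ER cells in ethanol, and 8.41 and 8.64 in Ik1ER cells in 4OHT. The last 2 were again the highest of the 8. It rose by 0.60 with 4OHT in Ik1ER cells (SE 0.11, 95% interval 0.33 to 0.86, 1.51-fold, adjusted p = 0.0404) and changed by -0.06 in MigR1 cells. Against MigR1 cells in 4OHT it differed by 0.43 (adjusted p = 0.132), and in ethanol by -0.23 (adjusted p = 0.819). These were the 2 called members among 28 in Ik1ER cells.

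The remaining Greb1 probe sets were not called. Probe set 1445323_at, with a mean of 5.04 and so below the highest Bacillus mean, read 4.95, 5.24, 5.13 and 5.01 in MigR1 cells, 4.87 and 4.65 in Ik1ER cells in ethanol, and 5.001 and 5.45 in Ik1ER cells in 4OHT. Against MigR1 cells, Ik1ER cells differed by -0.33 in ethanol (adjusted p = 0.815) and by 0.15 in 4OHT (adjusted p = 0.774). Its 4OHT effect was 0.46 in Ik1ER cells (SE 0.16, adjusted p = 0.265) and -0.02 in MigR1 cells. Without Ik1ER 4OHT replicate 2 the former was 0.24, and without both replicate 2 arrays of that line 0.13 (adjusted p = 0.841). Probe set 1445324_s_at read 6.25, 6.22, 6.16 and 5.95 in MigR1 cells and 6.06, 6.23, 6.42 and 6.16 in Ik1ER cells, a 4OHT effect of -0.18 in the former and 0.15 in the latter (adjusted p = 0.692), the latter being 0.36 without both replicate 2 arrays. All 4 Greb1 probe sets had a positive estimate in Ik1ER cells and a negative one in MigR1 cells, but probe sets of a gene share its RNA and are not replicates. In ethanol all 4 also read lower in Ik1ER than in MigR1 cells, with differences from -0.33 to -0.09 and no call. The called pair correlated at r = 0.86 over the 8 arrays and the other pair, annotated to the same record, at r = -0.04.

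Whether the 4OHT effect on Greb1 differed between the lines was tested directly. The difference of the effects was 0.64 for 1419593_at (SE 0.11, limma adjusted p = 0.0830) and 0.66 for 1439568_at (adjusted p = 0.206), and neither passed. Of the 28 probe sets 0 passed this test (2 had an unadjusted p under 0.05), against 0.393% of all. When dim probe sets were left out, so that fewer were tested, 1419593_at passed it (adjusted p = 0.0455).

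The calls for Greb1 rest on few arrays. Without Ik1ER ethanol replicate 1 the limma adjusted p of 1419593_at was 0.0581, and without replicate 2 of that group 0.101, so that the call was lost. It was also lost without both replicate 2 arrays of the Ik1ER line (0.144) and when only the 4 Ik1ER arrays were fitted (0.102). Its difference stayed between 0.52 and 0.63. The call of 1439568_at was kept only without Ik1ER 4OHT replicate 1 among the 8 arrays left out in turn, with an adjusted p of up to 0.212 otherwise and a difference between 0.48 and 0.72. The higher value of 1419593_at in Ik1ER than in MigR1 cells in 4OHT lost its call without Ik1ER 4OHT replicate 2 (0.0662) or any single MigR1 array (0.0519 to 0.167).

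With 4OHT against ethanol in Ik1ER cells, 6 of the 7 T lineage markers and 3 of the 4 myeloid markers were called, in both directions. Of the 5 epithelial markers 0 were called, where 5.35% of all genes were called. Cd3e, Cd3g and Cd3d fell by 0.43, 0.69 and 0.49 on the log2 scale, while Ptprc, Cd8a and Cd4 rose by 0.41, 1.84 and 0.72. Of the myeloid markers Lyz2 and Cd14 fell by 0.60 and 1.26, and Itgam rose by 0.54. The summed log2 level of the T lineage list was 79.3 in MigR1 cells in ethanol and in 4OHT, 78.9 in Ik1ER cells in ethanol and 80.6 in Ik1ER cells in 4OHT. That of the myeloid list was 23.02, 23.4, 23.3 and 21.9. Their part in the change of Greb1 was not tested, and in these bulk samples a change in the share of cells and a change in RNA per cell cannot be told apart.

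**Figure D3:**
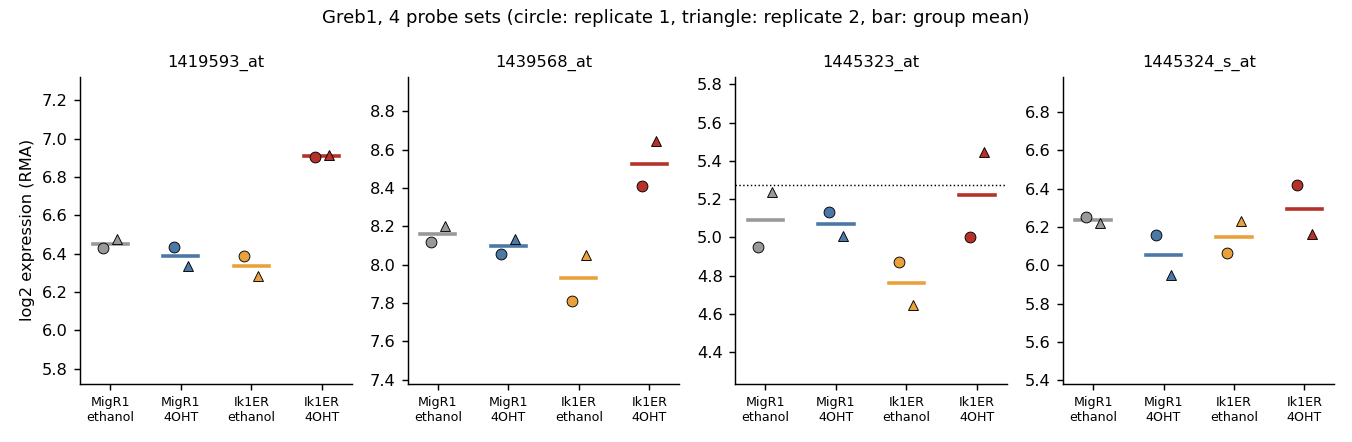
Log2 expression on each of the 8 arrays (vertical axis) for the 4 probe sets of Greb1, by group (horizontal axis). Points are arrays, bars are group means, and the dotted line, drawn where it falls within a panel, is the highest Bacillus control mean (5.27), with panels placed on their own part of the scale. In 1419593_at and 1439568_at both Ik1ER arrays with 4OHT lie above the other 6 arrays, at 6.91 and 6.92 and at 8.41 and 8.64.

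Pgr, the progesterone receptor gene and a classical estrogen target, gave no such reading. Its probe sets lay between 3.22 and 3.57 (1421444_at), 3.72 and 3.97 (1439527_at) and 3.62 and 3.90 (1455772_at) on all 8 arrays, below the highest Bacillus mean throughout. A change of Pgr at that level could not be measured here.

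Nrip1 encodes RIP140, a corepressor of ligand-bound receptors that estrogen also induces. None of its 6 probe sets was called in any contrast. Probe set 1447211_at read 6.25, 6.16, 6.18 and 6.21 in MigR1 cells, 6.27 and 6.39 in Ik1ER cells in ethanol, and 6.16 and 5.98 in Ik1ER cells in 4OHT, a difference of -0.26 (SE 0.09, adjusted p = 0.267). The direction is opposite to that of Greb1, without a call. Without both replicate 2 arrays of the Ik1ER line it was -0.11. This probe set did not follow the other Nrip1 probe sets (r = -0.29 to 0.19 over the 8 arrays). The brighter 1449089_at, 1434384_at and 1418469_at changed by -0.01, -0.18 and -0.21 with 4OHT in Ik1ER cells.

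Probe sets 1418469_at and 1449089_at of Nrip1, annotated to the same record and correlated at r = 0.94, differed between the replicates of each group. The former read 8.24 and 8.55, 8.06 and 8.42, 8.21 and 8.60, and 7.76 and 8.62 in MigR1 ethanol, MigR1 4OHT, Ik1ER ethanol and Ik1ER 4OHT. The latter read 9.14 and 9.49, 9.01 and 9.18, 9.05 and 9.35, and 8.79 and 9.59. Replicate 2 was the higher one in all 4 groups in both. This held for 7 of the 28 probe sets, and for 8.17% of all probe sets, while 0 of the 28 had replicate 2 lower in all groups, against 9.73% of all.

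Nrip1 1454295_at, another of these 7, read 6.16, 6.55, 6.13 and 6.21 in MigR1 cells and 5.81, 6.10, 5.77 and 6.12 in Ik1ER cells. All Ik1ER arrays were lower, by 0.31 on average (SE 0.12, exact permutation test, p = 0.0286), with no call in limma (adjusted p = 0.339). Without both replicate 2 arrays of the Ik1ER line it differed by -0.47 (adjusted p = 0.211). Probe set 1434384_at lay between 8.96 and 9.54 and 1432603_at, the only one of the 6 with a mean below the highest Bacillus mean, between 5.14 and 5.34.

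The p160 coactivators Ncoa1 (SRC-1), Ncoa2 (TIF2) and Ncoa3 (AIB1) bind liganded receptors and bring in histone acetyltransferases. Their 9 probe sets had 4OHT effects between -0.20 and 0.32 in Ik1ER cells and between -0.13 and 0.12 in MigR1 cells, with no call. Ncoa3 1422737_at read 7.24, 7.39, 7.33 and 7.26 in MigR1 cells, 7.09 and 7.30 in Ik1ER cells in ethanol, and 7.45 and 7.58 in Ik1ER cells in 4OHT. Both Ik1ER 4OHT arrays were the highest of the 8, and the 4OHT effect of 0.32 (SE 0.10, 95% interval 0.08 to 0.56) missed the call (adjusted p = 0.214). The other Ncoa3 probe set, 1448027_at, read 7.71 and 7.87 in ethanol and 7.58 and 8.17 in 4OHT in Ik1ER cells, so that its groups overlapped and its effect was 0.09, or -0.13 without both replicate 2 arrays.

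Ncoa2 1435233_at read 9.13, 9.02, 9.13 and 9.05 in MigR1 cells and 9.22, 9.53, 9.09 and 9.45 in Ik1ER cells. The mean over both treatments was 0.24 higher in Ik1ER cells (SE 0.10, adjusted p = 0.385, exact permutation test, p = 0.0857), and the replicate 2 arrays of the Ik1ER line, which stood apart in the transferrin receptor control, gave the highest values. Without them the difference was 0.07. Probe set 1435234_at, correlated with it at r = 0.95, differed by 0.18, and by 0.05 without these arrays. The dimmer Ncoa2 probe sets lay between 5.56 and 5.97 (1446827_at) and between 5.94 and 6.22 (1450458_at). Ncoa1 varied little: its probe sets lay between 8.71 and 8.87 (1418594_a_at), 8.39 and 8.61 (1434515_at) and 3.11 and 3.49 (1443397_at), the last below the highest Bacillus mean.

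4OHT alone gave no call among these genes. In MigR1 cells the 28 effects ran from -0.22 to 0.16, 0 of 28 were called by limma, 0 had an unadjusted p under 0.05, and the median was -0.02 against 0.00236 for all probe sets. Of all 45037 probe sets 0 were called as well (0%), and 960 had an unadjusted p under 0.05. The 95% interval lay within 0.5 of 0 for 24 of the 28 and within 1 for all 28. For the probe sets with a mean above the highest Bacillus mean, a 2-fold effect of the drug thus lay outside the interval. For those below it, such as the probe sets of Pgr and Esr2, the interval sets no bound on a change, as the scale compresses changes of dim probe sets. The widest interval was that of Esr1 1421244_at, up to 0.81. In 7 of the 28 the drug and solvent arrays did not overlap, 2 upward and 5 downward, and of all probe sets this was so for 30.3% (16.2% upward and 14.1% downward).

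In Ik1ER cells the 24 probe sets other than those of Greb1 ran from -0.31 to 0.32 with 4OHT, with a smallest adjusted p of 0.214. Groups did not overlap for 11 of the 28, 6 upward and 5 downward, and for 38.9% of all probe sets (19.2% upward and 19.6% downward). The 2 calls, both higher, were 7.14% of the 28, where 2.50% of all probe sets were called and 1.35% called higher. Both are probe sets of Greb1, so they stand for 1 gene. With 1 probe set per gene, 1 of 9 genes was called, where 5.35% of all genes were. Because the members were chosen with earlier results of these data known, these shares are a description only.

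**Figure D4:**
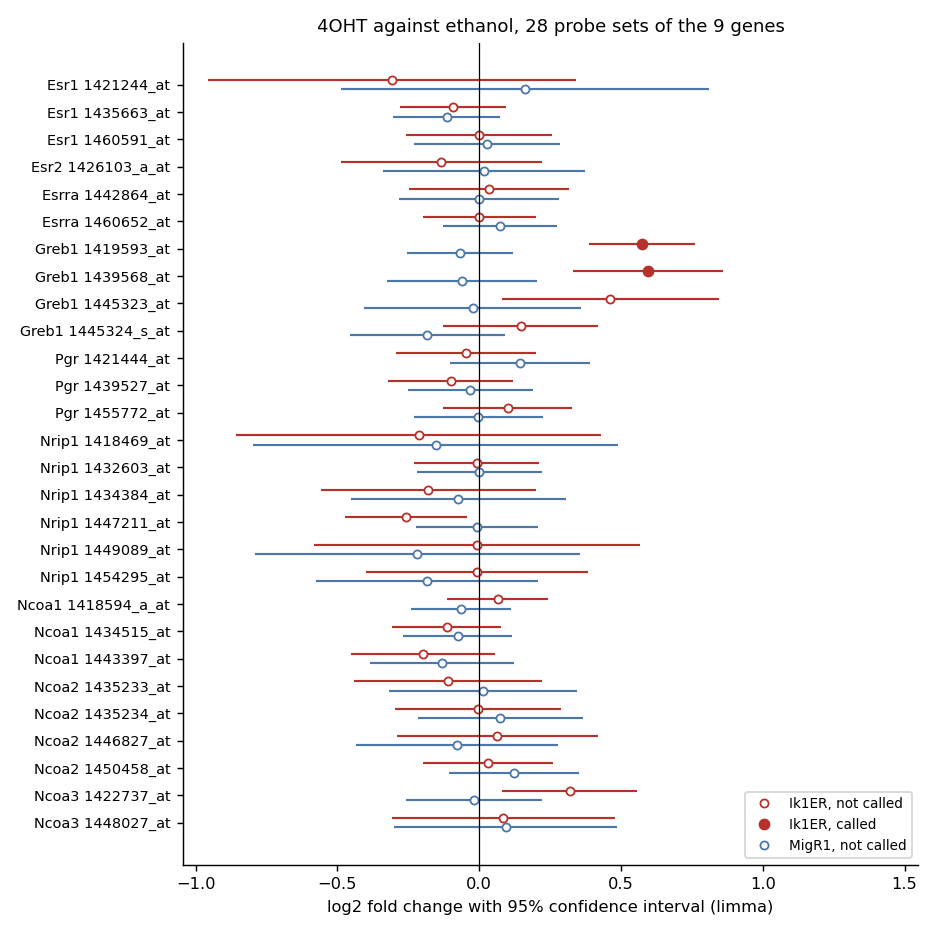
Effect of 4OHT against ethanol in Ik1ER and in MigR1 cells for the 28 probe sets (rows), as log2 fold change with its 95% confidence interval from limma on the horizontal axis. Filled points mark calls at an adjusted p under 0.05, which are Greb1 1419593_at (0.58) and 1439568_at (0.60) in Ik1ER cells.

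A wider list of 28 estrogen receptor targets was read with 1 probe set per gene, of which 26 were measured and 20 had a mean above the highest Bacillus mean. With 4OHT in Ik1ER cells 1 rose, 2 fell and 23 were not called, and the median was -0.13 against -0.00386 over all 18193 genes, of which 5.35% were called (2.84% higher and 2.51% lower). Greb1 was the gene that rose, by 0.60 (limma adjusted p = 0.0198). Ier3, an early response gene, read 7.10 and 7.27 in ethanol and 5.79 and 6.08 in 4OHT and fell by 1.25 (SE 0.16, adjusted p = 0.00499). Myc, the growth-promoting transcription factor gene that estrogen induces in breast cancer cells, read 11.68 and 11.55 in ethanol and 11.14 and 11.14 in 4OHT and fell by 0.48 (SE 0.08, adjusted p = 0.0124). Greb1 and these genes thus moved in opposite directions.

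In MigR1 cells 0 of the 26 targets were called by limma (2 had an unadjusted p under 0.05), with a median of -0.06, and 0.00550% of all genes were called. Ier3 read 7.82 and 7.37 in ethanol and 7.31 and 7.12 in 4OHT there, a difference of -0.38 (adjusted p = 1.00). In 4OHT, Ier3 and Myc were lower in Ik1ER than in MigR1 cells, by 1.28 and 0.45 on the log2 scale (adjusted p = 0.00502 and 0.0176), where 5.10% of all genes were called. Over both treatments Ier3 was lower by 0.85 (adjusted p = 0.0161), where 1.79% of all genes were called. That value averages unequal differences. The Ier3 means of Ik1ER and MigR1 cells were 7.18 and 7.60 in ethanol, without a call, and 5.94 and 7.21 in 4OHT. The call count of 3 in Ik1ER cells became 1 without Ik1ER ethanol replicate 1 and 0 without both replicate 2 arrays of that line.

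Of 26 further coregulators of nuclear receptors 24 were measured, and limma called 0 with 4OHT in Ik1ER cells (3 with an unadjusted p under 0.05, smallest adjusted p = 0.0983, median 0.01). Cited1, a CBP/p300-binding coactivator of estrogen receptor alpha, was lower in Ik1ER than in MigR1 cells in 4OHT by 0.45 (adjusted p = 0.0173), the 1 call among 24 (4.17%) where 5.10% of all genes were called. It read 6.51 and 6.39 in MigR1 and 6.001 and 6.01 in Ik1ER cells. Of 22 other steroid and orphan receptors 19 were measured. Rora, an orphan receptor gene, read 7.18 and 7.15 in ethanol and 8.18 and 7.94 in 4OHT in Ik1ER cells and rose by 0.89 (SE 0.17, 1.85-fold, adjusted p = 0.0204). It was the 1 call among 19 (5.26%), close to the 5.35% of all genes called. That call was lost without either Ik1ER ethanol array or Ik1ER 4OHT replicate 1, and without both replicate 2 arrays of that line. Nr3c2, the mineralocorticoid receptor gene, was 0.61 higher in Ik1ER than in MigR1 cells in 4OHT (adjusted p = 0.0438), again 1 call among 19 against 5.10% of all genes. Median changes of both lists with 4OHT in Ik1ER cells lay within 0.02 of 0.

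The genes whose log2 values followed the Greb1 probe sets most closely over the 8 arrays were found among all probe sets with a mean above the highest Bacillus mean. For 1419593_at they were Il21r (r = 0.997), Mettl6 (0.994) and Tespa1 (0.993), and for 1439568_at Sla (0.994), Sox4 (0.985) and Zfp592 (0.984). Il21r, an interleukin receptor gene, had group means of 6.58 and 8.01 in Ik1ER cells without and with 4OHT, and of 6.81 and 6.68 in MigR1 cells. For the dimmer 1445323_at they were Atxn10 (0.964), Adipor2 (0.962) and Ptch1 (0.958), and for 1445324_s_at Rabif (0.954), Zfp433 (0.949) and Rufy2 (0.941). No gene was named for more than 1 of the Greb1 probe sets.

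Esr1 1421244_at was followed most closely by Ddx5 (0.974), Dck (0.968) and Cks1b (0.960), whose group means spanned 12.56 to 12.68, 9.79 to 10.06 and 13.20 to 13.27. These ranges were narrow beside the 6.05 to 7.16 of Esr1. For 1435663_at they were Otp (0.950), Add2 (0.937) and Otog (0.930), and for 1460591_at Clip1 (0.993), B9d2 (0.929) and Ascc3 (0.912). With 8 arrays and many probe sets such likeness is a description of these arrays.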

How the data were processed

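Total RNA of 8 T29 samples was labelled with biotin and hybridised to Affymetrix mouse arrays. The deposited table holds log2 values made by the authors with RMA, per the submitters' processing notes. Its version and the build were not given in the sources used here. Probes are summarised by RMA, which also evens out the arrays to a common distribution, so that shifts of total RNA cannot be seen and changes of dim probe sets are compressed. Gene names came from the platform annotation: 1 symbol stands beside 34945 probe sets, several beside 932 and no symbol beside 9160, apart from 64 controls.

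Means of the 4 groups were fitted to all 45037 other probe sets with lmFit and eBayes of limma 3.58.1 in R 4.3.3 (4 residual degrees of freedom). P-values were adjusted by Benjamini and Hochberg over all of them within each of 6 contrasts and called under 0.05. Lines were also compared by exact permutation tests of the 28 probe sets, without adjustment. Wider lists used the probe set of highest mean per gene (18193 genes). The fit was tested on simulated data. As alternatives, the fit was repeated with a replicate block, without dim probe sets, with the trend and robust options of eBayes, after another quantile normalization or median centring, on only the arrays compared, on 1 probe set per gene, with a fold change limit, and with arrays left out. A planned scan of protein sequences was not run.

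The members and lists were chosen with earlier results of these data known. Named besides the members are called genes of each list, at most 4 per list and contrast by smallest p, the 3 probe sets most like each Esr1 and Greb1 probe set, the construct's Ikzf1 and cell type markers. The number of arrays limits the precision.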

Additional observations from a re-analysis of the deposited data

How the results depend on the processing

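Across the alternatives, no called value of the 28 probe sets changed sign, and 0 were called with 4OHT in MigR1 cells, between lines in ethanol, or between lines over both treatments. The count called with 4OHT in Ik1ER cells was 2. It became 0 when only the arrays of the groups compared were fitted, 1 of 9 genes with 1 probe set per gene, and 0 without both replicate 2 arrays of the Ik1ER line; leaving out single arrays gave 0 to 2. Between lines in 4OHT the count of 1 became 0 under the same 3 alternatives and 0 to 1 with single arrays left out. The test of the difference of the 4OHT effects went from 0 to 1 without dim probe sets. Esr1 1421244_at stayed 0.69 to 1.14 higher in Ik1ER cells, with a limma adjusted p of 0.0703 to 0.303. The cause of these changes was not tested, beyond the smaller number of probe sets or arrays.

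The labels share replicate numbers between groups but do not say that these mark a common culture or day. The difference of replicate 2 and replicate 1 correlated between groups at -0.02 to 0.43. With the replicate number as a block, 2 member probe sets were again called with 4OHT in Ik1ER cells.

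The wider lists were put through the same alternatives after the data were seen. Of the estrogen receptor targets 3 were called with 4OHT in Ik1ER cells, 5 with the replicate block, 1 with only the arrays compared, 0 without both Ik1ER replicate 2 arrays, and 1 to 3 with single arrays left out. Of the other receptors 1 was called, 2 with the replicate block, 2 without dim probe sets, 3 with trend and robust settings, 2 after repeated quantile normalization, 0 without both Ik1ER replicate 2 arrays, and 0 to 2 with single arrays left out. The other coregulators stayed at 0. Probe sets with a mean below the highest Bacillus mean, such as those of Pgr and Esr2, allow no statement on change.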
